A study of Mus musculus with 6 samples.

Results

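This account describes 9 genes of the stress axis in the female mouse hypothalamus: the ligands Crh, Ucn and Ucn3, the receptors Crhr1 and Crhr2, the binding protein gene Crhbp, the corticosteroid receptors Nr3c1 and Nr3c2, and the enzyme gene Hsd11b1. They were taken by gene symbol from the platform annotation of the array, among 17072 genes that had a probeset assigned to 1 gene. Each of the 9 had exactly 1 such probeset. All 9 lay above the minimum mean signal of 6 on the log2 scale that a probeset needed to be tested, as did 18239 probesets in all. Transcripts were measured in hypothalamic RNA of C57Bl/6J females at an age of 21 weeks, on 6 Affymetrix Mouse Gene 1.0 ST arrays. The CGP group (3 arrays) came from mothers given the NMDA receptor antagonist CGP 39551 by mouth at 5 mg/kg body weight during pregnancy and up to the end of weaning, and CON (3 arrays) was the control group. Both groups had standard chow and the same housing. RNA was pooled, with 18 mice a group by the series description, and no source used here states that the arrays of a group held separate pools. The p-values therefore rest on array-to-array variation, possibly technical, and the variation between mice was not measured.

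Corticotropin-releasing hormone (CRH) is the peptide through which the hypothalamus drives ACTH release from the pituitary and, through ACTH, glucocorticoid release from the adrenal. CRH and urocortin bind the G protein-coupled receptor CRHR1, both also bind CRHR2, and urocortin 3 is selective for CRHR2. The binding protein CRHBP holds CRH and urocortin away from their receptors. Glucocorticoids feed back on the brain through the glucocorticoid receptor (Nr3c1) and the high-affinity mineralocorticoid receptor (Nr3c2), and the enzyme encoded by Hsd11b1 regenerates active glucocorticoid inside cells.

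The arrays were close to each other. Their correlations over the tested probesets lay between 0.997 and 0.998 within groups and between 0.996 and 0.998 between groups, and their medians between 8.19 and 8.21. Of 12 hypothalamus markers, 11 had a probeset assigned to 1 gene, their lowest signal on any array was 8.14, and none was called different between the groups (limma). The lowest adjusted p among them was 0.325, and 2 of the 11 had an unadjusted p under 0.05, as did 11.1% of all tested probesets. Both of these were lower in CGP, and of the 11 differences 8 were below 0 and 3 above. The list's mean signal lay between 10.41 and 10.43 on the CGP arrays and between 10.44 and 10.49 on the CON arrays. Of the adrenal steroid enzyme genes, Cyp11b1 had a mean signal of 6.09 in CGP and 6.10 in CON, Cyp11b2 one of 7.03 in CGP and 7.03 in CON, and Cyp21a1 one of 6.41 in CGP and 6.37 in CON. As a measure of background, the Y-linked genes Kdm5d, Eif2s3y and Uty, which female mice lack, read between 4.31 and 5.62 over the 6 arrays. Crh, with a mean of 7.20 in CGP and 7.20 in CON, lay above these but close to Cyp11b2. In both groups the means of Crh, Ucn, Ucn3, Crhr2 and Hsd11b1 lay below the array medians. How far the signal of Crh lay above the background of its own probeset was not tested, so that a change of Crh may be understated.

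Promoter sequences are shown for the receptor genes Crhr1 and Crhr2, the only members whose arrays did not overlap between the groups. That of Ucn is shown because it was the only one of 7 matched members with a full cAMP response element. Crh and Nr3c1 had no entry among the promoter sequences used, so that they were not searched for any motif. The sequences are from RefSeq on GRCm38.p6 and give the 250 bases before the annotated start, 5′ to 3′. Capitals mark TATAAA, the core of the TATA box, in Crhr2, and TGACGTCA, the cAMP response element, in Ucn. The Crhr1 window lies at chr11:104132531-104132780 on the plus strand, that of Crhr2 at chr6:55133017-55133266 on the minus strand and that of Ucn at chr5:31138896-31139145 on the minus strand.
Crhr1: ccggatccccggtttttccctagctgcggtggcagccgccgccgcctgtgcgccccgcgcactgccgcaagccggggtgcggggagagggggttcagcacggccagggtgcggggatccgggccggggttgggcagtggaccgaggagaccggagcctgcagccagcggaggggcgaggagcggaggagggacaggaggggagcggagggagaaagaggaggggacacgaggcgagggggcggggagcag
Crhr2: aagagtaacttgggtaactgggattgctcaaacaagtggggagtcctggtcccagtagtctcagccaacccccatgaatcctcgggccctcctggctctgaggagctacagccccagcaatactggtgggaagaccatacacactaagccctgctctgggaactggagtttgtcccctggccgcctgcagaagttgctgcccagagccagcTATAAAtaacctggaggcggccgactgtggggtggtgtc
Ucn: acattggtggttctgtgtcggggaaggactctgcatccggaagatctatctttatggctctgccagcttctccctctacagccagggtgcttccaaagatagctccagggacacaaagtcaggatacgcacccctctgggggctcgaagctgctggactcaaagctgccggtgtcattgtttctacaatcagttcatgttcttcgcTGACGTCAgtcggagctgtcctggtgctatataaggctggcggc

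The receptor promoters differed in composition. The Crhr1 window had 74.8% G and C with 25 CG dinucleotides and none of the motifs searched, and the Crhr2 window had 57.6% G and C with 4 CG dinucleotides. In Crhr2 the TATAAA match began 39 bases before the start, and in Ucn the TGACGTCA match began 44 bases before it. On either strand, TATAAA occurred in 12.4% and TGACGTCA in 1.55% of the 32851 promoter windows of this length in the table. The palindromic glucocorticoid response element occurred in none of the 7 members' windows and in 3 windows of the whole table. The motifs did not overlap each other. The arrays measure transcripts, so that these matches are descriptions of sequence.

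Among the ligands, CGP and CON arrays were interleaved. Crh, the gene of CRH, had signals of 7.25, 7.01 and 7.35 on CGP arrays 1 to 3, against 7.15, 7.40 and 7.05 on CON arrays 1 to 3. The highest of the 6 was a CON array and the lowest a CGP array, and the means were 7.20 ± 0.17 in CGP and 7.20 ± 0.18 in CON (SD, n = 3 each). The difference, CGP minus CON, was 0.0064 on the log2 scale (SE, its standard error, 0.11, limma adjusted p = 0.991), with a 95% confidence interval of 0.85-fold to 1.19-fold. In bulk tissue, fewer cells of a type and less RNA per cell cannot be told apart. Ucn, which encodes urocortin and is known for its expression in the midbrain Edinger-Westphal nucleus, had signals of 7.45, 7.59 and 7.63 on the CGP arrays and 7.55, 7.45 and 7.65 on the CON arrays. Its groups overlapped almost fully, with a difference of 0.0060 (SE 0.064, limma adjusted p = 0.984) and an interval of 0.91-fold to 1.11-fold. Ucn3, the urocortin 3 gene of perifornical and medial amygdala neurons, had signals of 7.82, 7.58 and 7.58 on the CGP arrays and 7.60, 7.88 and 7.65 on the CON arrays. In each group 1 array stood above the other 2, replicate 1 of CGP and replicate 2 of CON. The difference of Ucn3 was -0.050 (SE 0.089, limma adjusted p = 0.875), with an interval of 0.84-fold to 1.11-fold.

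The receptors were the members with the largest differences, in opposite directions, and neither passed the test. Crhr1, the receptor of pituitary corticotrophs that is also expressed in cortex and in midbrain dopamine neurons, had signals of 8.56, 8.50 and 8.53 on the CGP arrays and 8.70, 8.66 and 8.66 on the CON arrays. Every CGP array lay below every CON array, with a gap of 0.10 between the groups. The difference was -0.14 (SE 0.035, limma adjusted p = 0.241), which is 0.91-fold with a 95% confidence interval of 0.86-fold to 0.96-fold. Crhr2, the receptor of the ventromedial hypothalamus and lateral septum, had signals of 8.16, 8.07 and 8.12 on the CGP arrays and 8.04, 7.99 and 8.04 on the CON arrays. Here the CGP arrays were all higher than the CON arrays, with a gap of 0.030. The difference of Crhr2 was 0.093 (SE 0.039, limma adjusted p = 0.443), or 1.07-fold, with a 95% confidence interval of 0.0023 to 0.18 on the log2 scale. These intervals are not adjusted for the number of probesets tested, whereas the calls are. An exact permutation test of 3 against 3 arrays cannot give a two-sided p below 0.1, so that the separation of the arrays adds no call to either gene.

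Crhbp, whose product binds CRH and urocortin, had signals of 8.81, 8.73 and 8.85 on the CGP arrays and 8.92, 8.83 and 8.81 on the CON arrays. The groups overlapped, since CGP arrays 1 and 3 lay close to CON arrays 2 and 3. The difference was -0.059 (SE 0.046, limma adjusted p = 0.675), with an interval of 0.89-fold to 1.03-fold.

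**Figure D1:**
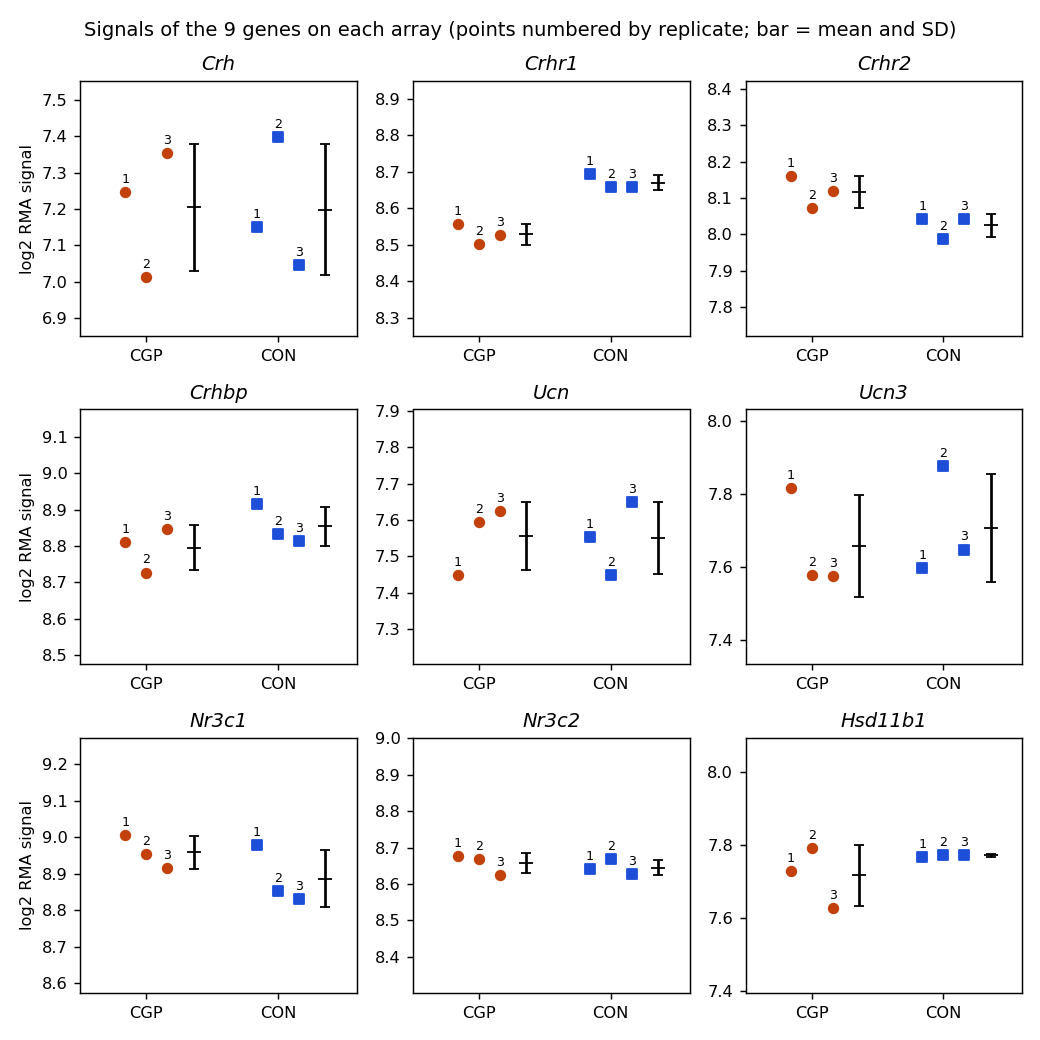
Log2 RMA signal of the 9 genes on each array, CGP (circles) left of CON (squares), numbered by replicate, with the mean and SD of each group as a bar. Each vertical axis spans the same width of 0.7 on the log2 scale. The groups lie apart for Crhr1 (8.53 in CGP and 8.67 in CON) and Crhr2 (8.12 in CGP and 8.02 in CON) and overlap for the other 7 genes.

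Neither corticosteroid receptor gene nor Hsd11b1 was called. Nr3c1, the glucocorticoid receptor, had signals of 9.01, 8.95 and 8.92 on the CGP arrays and 8.98, 8.85 and 8.83 on the CON arrays. CON replicate 1 lay among the CGP arrays, while the other CON arrays lay below all of them. The difference was 0.072 (SE 0.049, limma adjusted p = 0.628), with an interval of 0.97-fold to 1.14-fold. Nr3c2, the mineralocorticoid receptor, had signals of 8.68, 8.67 and 8.63 on the CGP arrays and 8.64, 8.67 and 8.63 on the CON arrays. All 6 values of Nr3c2 lay within 0.051, the narrowest range of the 9 genes, and the difference was 0.012 (SE 0.035, limma adjusted p = 0.928), with an interval of 0.95-fold to 1.07-fold. Hsd11b1 had signals of 7.73, 7.79 and 7.63 on the CGP arrays and 7.77, 7.77 and 7.77 on the CON arrays. The CON arrays of Hsd11b1 agreed within an SD of 0.0039, CGP replicate 3 was the lowest array, and the difference was -0.055 (SE 0.047, limma adjusted p = 0.701), with an interval of 0.89-fold to 1.04-fold.

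Over all 9 genes, 5 differences were above 0 and 4 below, with a median of 0.0060, against -0.0031 over all tested probesets. By limma, 0 of the 9 had an adjusted p under 0.05, also with ordinary variances, and 2, Crhr1 and Crhr2, had an unadjusted p under 0.05, where the share over all tested probesets was 11.1%. Of all tested probesets, 0.154% were called higher in CGP and 0.126% lower. The arrays of the groups did not overlap for 1 of the 9 genes in the higher direction, where the share over all tested probesets was 7.59%, and for 1 in the lower direction, where it was 9.95%. Both counts are those of single genes and lie near these shares. A call at an adjusted p under 0.05 went with an unadjusted p of at most 1.354e-04. To reach that p at its own spread, a gene would have needed a difference of 0.24 for Crhr1 and Nr3c2, 0.27 for Crhr2, between 0.32 and 0.34 for Crhbp, Hsd11b1 and Nr3c1, 0.44 for Ucn, 0.61 for Ucn3 and 0.73 for Crh. Measured changes of Crh under 1.66-fold would thus not have been called with these arrays.

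**Figure D2:**
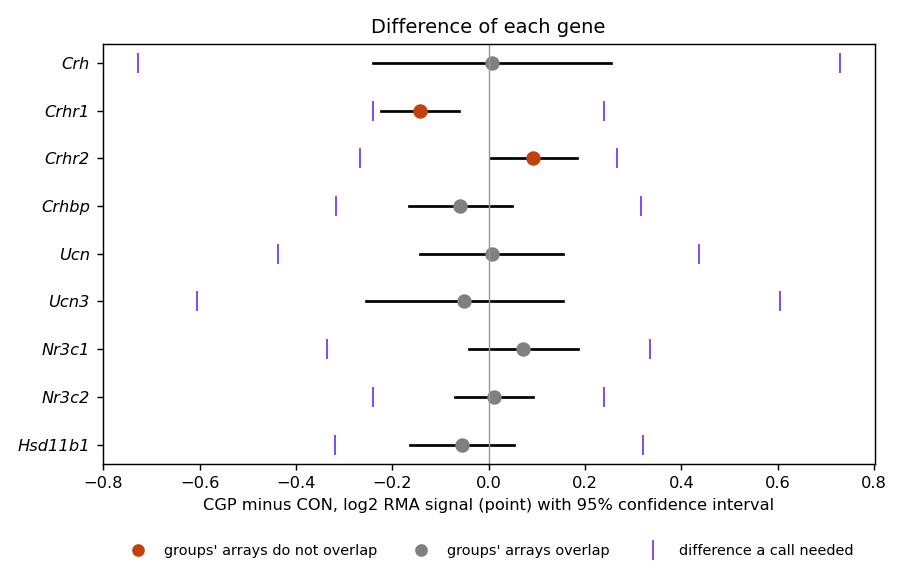
Difference of each gene, CGP minus CON, on the log2 scale (points) with its 95% confidence interval (lines); ticks mark the difference that a call at an adjusted p under 0.05 needed. The intervals are those of single genes, not adjusted for the number of probesets tested. Those of Crhr1 (-0.22 to -0.061) and Crhr2 (0.0023 to 0.18) leave out 0, those of the other 7 genes include it, and no point reaches its ticks.

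The genes differed in how much replicate arrays varied. The SD between arrays within groups was 0.18 for Crh, which was larger than that of 98.2% of the 1000 tested probesets nearest to it in mean signal, and 0.14 for Ucn3, larger than 96.4% of its own 1000. For Ucn it was 0.096, larger than 72.9%. At the other end, Crhr1 had an SD of 0.025 and Nr3c2 one of 0.024, larger than only 5.5% and 5.2% of the probesets of like signal. Of the 9 genes, the peptide genes had the widest spread and Nr3c2 and Crhr1 the narrowest. For Crh it was alike in both groups, with an SD of 0.17 in CGP and 0.18 in CON.

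**Figure D3:**
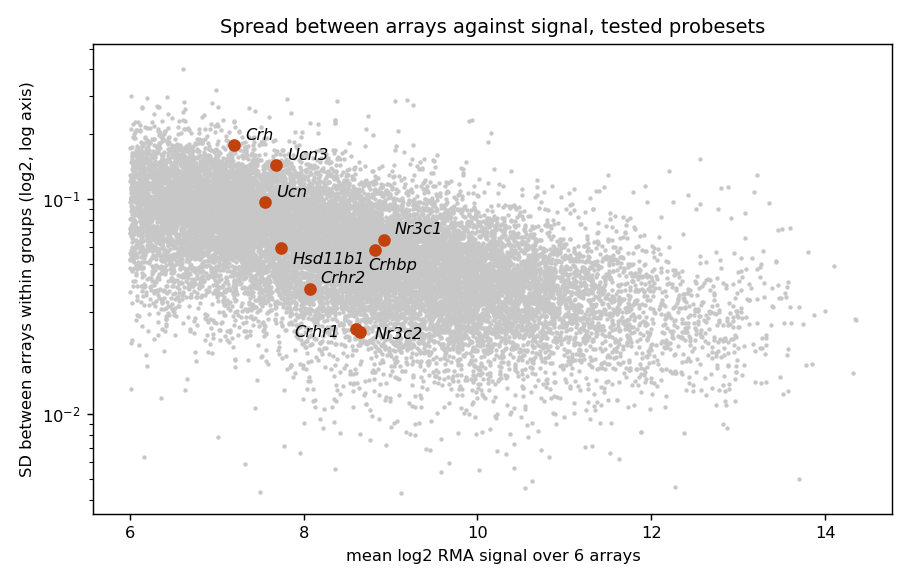
SD between arrays within groups (vertical, log axis) against the mean log2 signal over 6 arrays (horizontal) for all tested probesets (grey) and the 9 genes (named points). Crh (0.18) and Ucn3 (0.14) lie at the upper edge of the cloud, and Crhr1 (0.025) and Nr3c2 (0.024) in its lower part.

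Genes that work with these 9 were read in 4 lists. Of 72 genes listed, 61 were tested, 2 were called higher in CGP, 0 lower and 59 were not called, with a median difference of -0.0071. Over all tested probesets, 0.154% were called higher, 0.126% lower, and 11.1% had an unadjusted p under 0.05. Among 21 tested partners of CRH signalling (peptide processing, cAMP signalling, and transcription factors of CRH neurons and their response), 1 was called and 3 had an unadjusted p under 0.05 (2 higher and 1 lower), with a median of 0.030 over the list. It was Nr4a1, a transcription factor induced by CRH in pituitary cells and by neuronal activity. Its mean signal was 9.99 ± 0.017 in CGP and 9.64 ± 0.013 in CON (SD, n = 3 each), a difference of 0.34 (limma adjusted p = 0.0121). Ucn2, the remaining urocortin gene, averaged 6.50 ± 0.17 in CGP and 6.52 ± 0.11 in CON (SD, n = 3 each) and was not called (limma adjusted p = 0.957).

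Of 19 chaperones and cofactors of the corticosteroid receptors, 0 were called by limma, and the list's median was -0.049. At an unadjusted p under 0.05 there were 2, both with differences below 0, where the share over all tested probesets was 11.1%. The arrays of the groups did not overlap for 7 of the 19, each with CGP below CON, and for 0 with CGP above CON, where the shares over all tested probesets were 9.95% and 7.59%. The largest difference was that of the co-chaperone gene Bag1, -0.14 (limma adjusted p = 0.319), with means of 9.40 ± 0.065 in CGP and 9.54 ± 0.026 in CON (SD, n = 3 each). Fkbp5, which lowers the hormone affinity of the glucocorticoid receptor and is itself induced by glucocorticoids, averaged 8.80 ± 0.15 in CGP and 8.88 ± 0.017 in CON (SD, n = 3 each), with an adjusted p of 0.734 from limma.

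Among 8 genes of corticosteroid access and metabolism 0 were called by limma, with a median of 0.00027. An unadjusted p under 0.05 was found for 1 of the 8, where the share over all tested probesets was 11.1%. The largest difference was 0.12, that of the efflux transporter gene Abcb1b (limma adjusted p = 0.669). Its groups overlapped, and its means of 6.61 in CGP and 6.49 in CON were near the minimum of 6. Abcb1a, the gene with an unadjusted p under 0.05, went the other way without overlap, with a difference of -0.12 (limma adjusted p = 0.426). Hsd11b2, whose enzyme inactivates glucocorticoid, averaged 7.30 ± 0.068 in CGP and 7.22 ± 0.16 in CON (SD, n = 3 each).

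Of 13 genes known to be induced by glucocorticoids, 1 was called higher in CGP and 0 lower, and the median was -0.025. An unadjusted p under 0.05 was found for 5 of the 13, 2 with differences above 0 and 3 below, where the share over all tested probesets was 11.1%. The same split held for the 5 genes whose groups did not overlap. Over all tested probesets, the shares without overlap were 7.59% with CGP above CON and 9.95% with CGP below. The called gene was Dusp1, a MAP kinase phosphatase gene that neuronal activity also induces, at 10.12 ± 0.025 in CGP and 9.86 ± 0.036 in CON (SD, n = 3 each), a difference of 0.26 (limma adjusted p = 0.0441). Zbtb16, a zinc finger gene used as a marker of glucocorticoid action, had a difference of -0.24 and was not called (limma adjusted p = 0.0526). Per1, a circadian clock gene, had a difference of 0.12 (limma adjusted p = 0.323) and Pdk4, a pyruvate dehydrogenase kinase gene, one of -0.19 (limma adjusted p = 0.171). Tsc22d3 and Sgk1, further genes of this list, had differences of -0.097 and -0.025, also not called. The calls of Nr4a1 and Dusp1 were lost when any 1 array was left out, where 0 of the 61 genes were called higher.

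**Figure D4:**
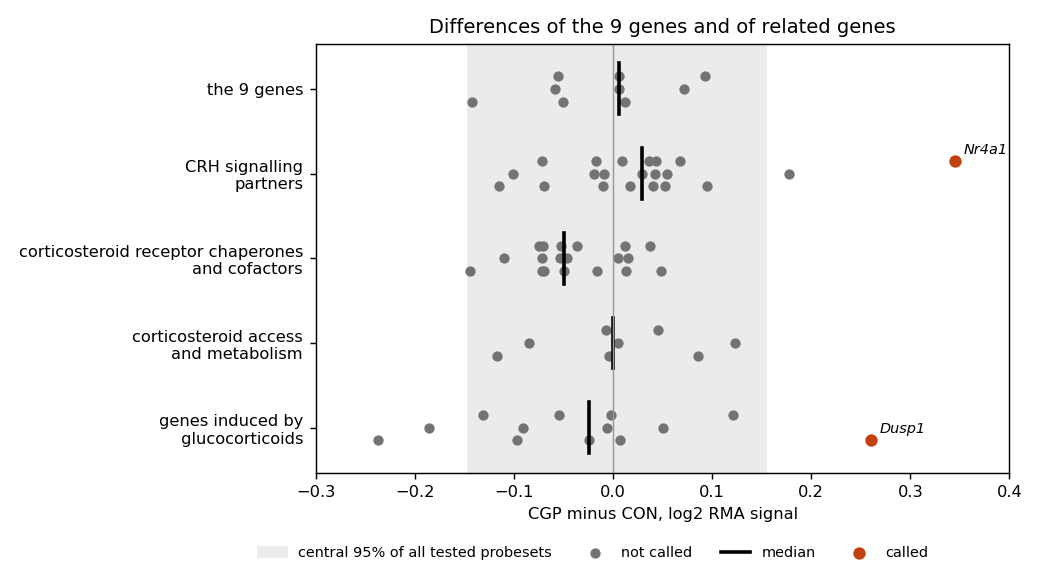
Differences, CGP minus CON, on the log2 scale for the 9 genes and the tested genes of 4 related lists; black bars are medians, and the grey band holds the central 95% of all tested probesets (-0.15 to 0.15). All 9 genes lie inside the band, and Nr4a1 (0.34) and Dusp1 (0.26) are the called genes.

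Some marker genes of neighbouring tissues, several of which are known to express some of the 9, were called different between the groups. Over all tested probesets, 0.154% were called higher, 0.126% lower, and 11.1% had an unadjusted p under 0.05. The calls of tissue markers were not followed through the alternative fits. With 1 array left out, only 6 to 10 probesets were called in the whole table, against 51 with all arrays. The mean signal of 8 anterior pituitary genes lay between 10.12 and 10.15 on the CGP arrays and between 9.73 and 9.78 on the CON arrays, with 3 called higher (Pomc by 1.56, Lhb by 0.46 and Gh by 0.39) and 0 lower. At an unadjusted p under 0.05 there were 6 of the 8, all higher. The 8 differences were uneven, from -0.037 to the 1.56 of Pomc with a median of 0.24, and 7 were above 0 and 1 below. Pomc thus weighed most in the mean of this list, and neurons of the hypothalamus itself also express Pomc. For 12 midbrain dopamine neuron genes it lay between 8.93 and 8.98 on the CGP arrays and between 9.11 and 9.13 on the CON arrays, with 1, Slc6a3, called lower (difference -0.39) and 0 higher. At an unadjusted p under 0.05 there were 9 of the 12, 8 lower and 1 higher, Nr4a2 (difference 0.15, limma adjusted p = 0.303). Crhr1, known from pituitary, midbrain dopamine neurons and cortex, had a difference below 0. The median of the midbrain list was below 0 (-0.19), as were those of the hypothalamus (-0.032) and meninges (-0.27) lists. Above 0 were the medians of the pituitary (0.24), choroid plexus (0.21), thalamus (0.22) and cortex, hippocampus and amygdala (0.047) lists. The part of any of these tissues in the values of Crhr1 or Ucn was not tested.

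Crhr2 is known from the rat choroid plexus. The mean signal of 11 choroid plexus genes lay between 8.14 and 8.20 on the CGP arrays and between 7.90 and 7.92 on the CON arrays, with 2 called higher (Ttr by 0.84 and Slc4a5 by 0.40) and 0 lower, and 9 of the 11 had an unadjusted p under 0.05, all higher. Of 12 thalamus genes 4 were called higher, among them Grid2ip by 0.39, Ptpn3 by 0.36 and Lhx9 by 0.33, and the list's mean signal lay between 9.98 and 9.99 on the CGP arrays and between 9.77 and 9.80 on the CON arrays. An unadjusted p under 0.05 was found for 9 of the 12, all higher. Ptpn3 had 12 probesets, of which only that with the highest mean signal was read. Of 12 meninges genes 5 were called lower, among them Prg4 (-0.57), Ogn (-0.44) and Fmod (-0.36), and the list's mean signal lay between 8.40 and 8.47 on the CGP arrays and between 8.68 and 8.70 on the CON arrays. Here too 9 of the 12 had an unadjusted p under 0.05, all lower. The shares over all tested probesets were 0.154% called higher, 0.126% called lower and 11.1% with an unadjusted p under 0.05. None of the 7 tested genes of cortex, hippocampus and amygdala was called by limma and 1 had an unadjusted p under 0.05, with mean signals of 8.27 to 8.30 on the CGP arrays and 8.24 to 8.27 on the CON arrays. Arrays give no true zero, and the lowest signal of a marker on any array over the 6 tissue lists was 5.90, in the meninges list. The part of these tissues in the value of Crhr2 was not tested.

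The genes whose signals ran most like those of Crhr1 over the 6 arrays, out of 16662 others tested, were Nkd2 (Pearson's r = 0.998), Ccn3 (0.9965) and Gjb2 (0.996), and 153 genes had an r over 0.95. For Crh they were Ccdc137 (0.973), Olfr1389 (0.969) and Polm (0.963), and 13 genes had an r over 0.95. With 6 arrays in 2 groups these are descriptions, and the r values of Crhr1 include its difference between the groups.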

How the data were processed

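Hypothalamic RNA of female mice was measured on 6 arrays, 3 a group. The authors deposited 1 table of log2 signals of 28471 probesets. Per the labels these are RMA values (background correction, quantile normalization and summary of each probeset) made with Partek; their versions and the genome build were not given in the sources used here. Quantile normalization gives arrays a like distribution, and signals near background understate changes. The labels' treatment text mentions adrenal glands, whereas the source and extraction labels name the hypothalamus.

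The platform annotation gave 1 gene for 18690 probesets, several for 1163 and none for 8618. Probesets with 1 gene and a mean of at least 6 were tested (451 removed). The difference CGP minus CON was fitted over all 18239 with limma 3.58.1 (R 4.3.3; lmFit, eBayes, no covariate), with Benjamini-Hochberg adjustment and a call at an adjusted p under 0.05. The fit was tested on simulated data. Array number limits the precision, and no detection p was used. The 9 genes and all lists were chosen with earlier results of these data known, so that no list is independent support. Named genes are the 9, called genes of the 4 lists (else the one with the largest difference), called tissue markers (at most 3 a list) and the 3 genes most correlated with Crh and with the member of largest difference. Ucn2, Fkbp5, Abcb1a, Hsd11b2, Zbtb16, Per1, Pdk4, Tsc22d3, Sgk1, Nr4a2 and the adrenal enzymes were chosen after their values were seen. Alternatives were no filter, centred arrays, a trended and robust prior, array weights, ordinary variances, the replicate number as a block, and each array left out in turn.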

Additional observations from a re-analysis of the deposited data

How the results depend on the processing

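None of the 9 genes was called in any of 12 alternative fits (limma). The lowest adjusted p was 0.158, that of Crhr1 with a trended and robust prior. Crhr1 (-0.157 to -0.129), Crhr2, Crhbp, Nr3c1, Nr3c2 and Hsd11b1 kept their direction in all 12, Ucn3 in 11, Ucn in 9 and Crh in 8. With 1 array left out, differences ran from -0.069 to 0.106 for Crh, -0.044 to 0.059 for Ucn and -0.131 to 0.034 for Ucn3, so that these have no settled direction. The sign turned for Crh without CGP replicate 1, CGP replicate 3, CON replicate 1 or CON replicate 3, for Ucn without CGP replicate 2, CGP replicate 3 or CON replicate 2, and for Ucn3 without CON replicate 2. Over all tested probesets, the 28 called higher and 23 called lower became 113 and 136 with the trended and robust prior, 4 and 2 with ordinary variances, and 2 to 5 and 3 to 8 with 1 array left out. Array weights gave 39 higher and 38 lower. In the 4 related lists, 2 genes were called lower with the trended and robust prior and 1 with array weights, 1 was called higher with ordinary variances, and 0 were called higher with any 1 array left out; the cause was not tested. Same-numbered arrays did not deviate together (correlations 0.078, -0.18 and 0.11). With 3 arrays a group, this cannot exclude that the numbers pair them. With the replicate number as a block, 2 probesets were called higher and 4 lower, and 0 genes of the lists were called higher. No filter on low signals and centring of arrays changed no call of the 9 genes. Averaging the probesets of a gene could not be run as an alternative for the 9 genes, since each of them had 1. Some genes of the lists had several, of which only the probeset with the highest mean signal was read. Signals near 6 understate changes, and with 3 arrays a group a measured change of Crh under 1.66-fold would not have been called.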
